A study of Mus musculus with 6 samples.

Results

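Transcripts of lysosomal enzymes, lysosomal membrane proteins and the lysosomal proton pump were compared between J774 cells transfected with control siRNA and with NCOA4 siRNA. The gene set comprised 45 named mouse genes of the 55487 genes with deposited values. It was defined by gene name and known role, with earlier results of these data known. It held 4 membrane proteins, 10 cathepsins and other proteases, 8 glycosidases, 4 lipid hydrolases or activators, 3 transcription factors of the MiT/TFE family and 16 genes of the vacuolar H+-ATPase (V-ATPase). Each was found by its Ensembl mouse identifier, named with GENCODE M21. J774 is an established mouse macrophage line. The siRNAs (small interfering RNAs) are duplexes designed to direct the degradation of a transcript with a matching sequence. Cells of both groups were J774 cells grown in the same medium and received their siRNA by liposome-mediated delivery, with 3 biological replicates for control siRNA (genotype label: control) and 3 for NCOA4 siRNA (genotype label: NCOA4 knockdown). All 6 libraries came from 1 cell line, and the NCOA4 siRNA group is a partial knockdown rather than a knockout. Levels are in TPM (reads per unit of gene length, set to a total of 1000000 in each library), so that levels of different genes can be compared.

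Lysosomes are the acidic compartment in which cells break down material delivered by endocytosis, phagocytosis and autophagy. Hydrolases such as the cathepsins work at the low pH that the V-ATPase sets up by pumping protons with the energy of ATP, through a cytosolic V1 sector that splits ATP and a membrane V0 sector that carries the protons. Many lysosomal genes share a short promoter element, the CLEAR element, to which the transcription factors TFEB, TFE3 and MITF bind. Macrophages are rich in lysosomes, and NCOA4 is the autophagy receptor that carries ferritin to them for degradation. The comparison asked how transcript levels of this degradative machinery differed when NCOA4 was depleted.

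Ncoa4 (ENSMUSG00000056234, chr14:32159865-32179855, plus strand, GRCm38), the targeted gene, was measured first as a check of the labels. Its level was 19.7, 22.5 and 22.4 TPM in control siRNA replicates 1 to 3 and 9.63, 8.60 and 8.88 TPM in NCOA4 siRNA replicates 1 to 3. All NCOA4 siRNA libraries lay below all control libraries, at 41.9% of the control mean (log2 fold change -1.21, SE 0.0767, adjusted p = 0.00127 by limma with Benjamini-Hochberg adjustment). The cell type label was checked with 10 macrophage markers, all of which were expressed and which together made up 8650 to 8841 TPM in control libraries and 8981 to 9083 TPM in NCOA4 siRNA libraries. Of these markers, 4 were higher with NCOA4 siRNA and 1 was lower at an adjusted p under 0.05 (50%, beside 5.42% of all genes tested). Of the 10 markers, 2 also passed a fold change of 1.5, beside 1.18% of all genes tested. The part of these differences in the lysosomal values was not tested. Of 16 markers of other cell types, 9 were at 0 in every library and all together summed to between 0.903 and 1.66 TPM.

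Control siRNA replicate 1 stood apart from the other libraries. Transcripts of the mitochondrial genome took 129222 TPM there, against 93614 to 101701 TPM in the other 5 libraries. The chi-square per gene between this library and control replicates 2 and 3 was 11.6 and 11.7, whereas NCOA4 siRNA replicates differed from each other by 1.96 to 2.35. Control replicates 2 and 3 differed by 3.60, more than any pair of NCOA4 siRNA replicates. Values without control siRNA replicate 1 are therefore given where they move a result.

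The 45 genes together took a nearly constant share of the transcriptome, between 1.40% and 1.44% of all TPM in every library. Their summed level was 14034, 14328 and 14356 TPM in control siRNA replicates 1 to 3 and 14173, 14012 and 14151 TPM in NCOA4 siRNA replicates 1 to 3. These ranges overlapped. The most abundant members were cathepsin transcripts, led by Ctsz at a control mean of 1907 ± 53.3 TPM, Ctss at 1429 ± 19.6 TPM and Ctsb at 1358 ± 60.0 TPM, followed by Psap, which encodes the saposin precursor, at 1030 ± 58.1 TPM and Ctsd at 1016 ± 35.8 TPM (SD, n = 3 each). Levels of neighbours in this order overlapped for Psap and Ctsd and for Ctss and Ctsb. Of the genes with a mean of at least 0.5 TPM, the lowest were Ctsh (4.12 ± 0.125 TPM), Tfeb (10.6 ± 0.631 TPM) and the calcium channel gene Mcoln1 (10.9 ± 0.565 TPM).

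**Figure D1:**
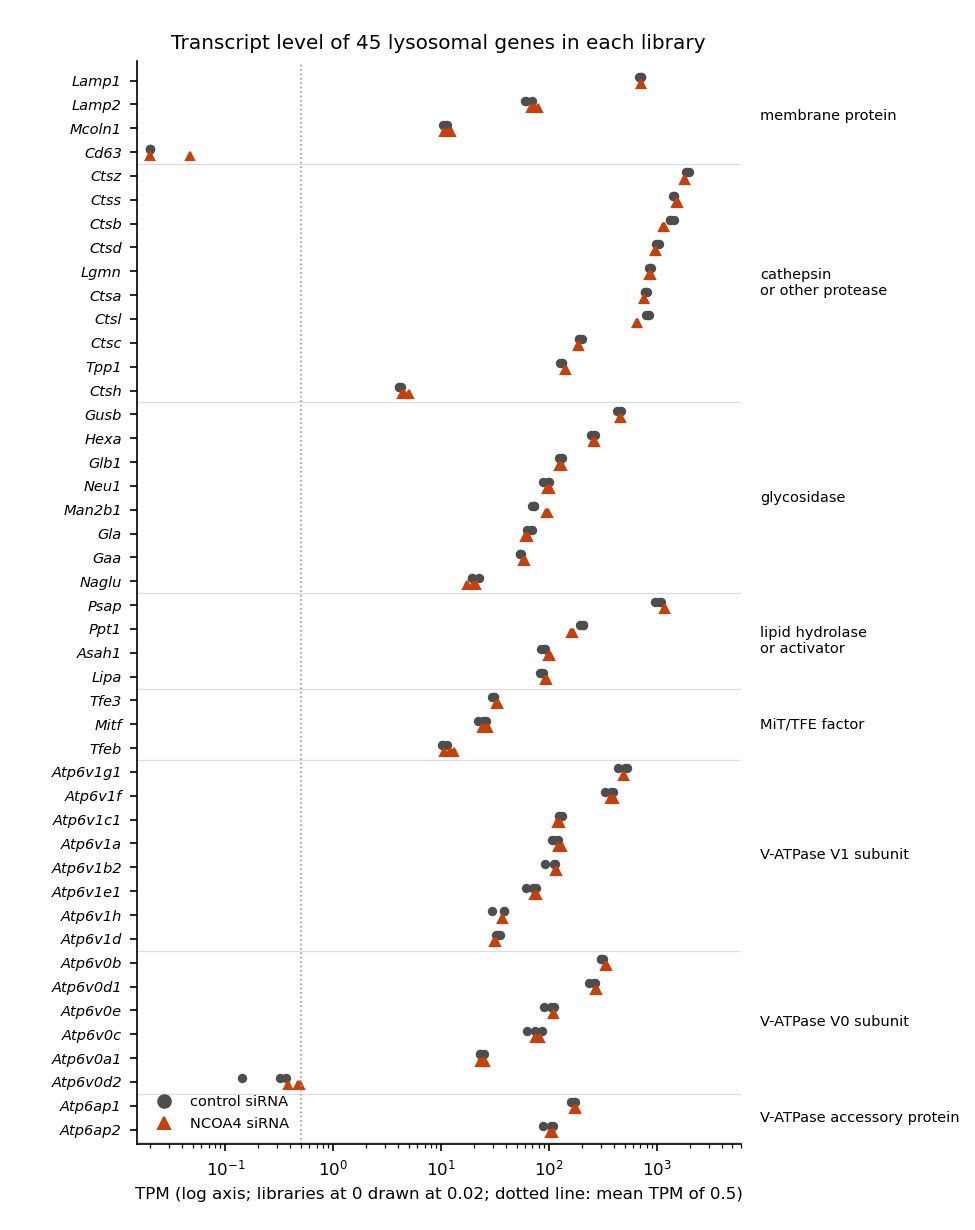
TPM of the 45 lysosomal genes on a log axis, grouped by role, with 1 point per library (grey circles, control siRNA; orange triangles, NCOA4 siRNA). Points of both groups lie close together for nearly all genes, from a control mean of 4.12 TPM for Ctsh to 1907 TPM for Ctsz, and Cd63 and Atp6v0d2 lie below the dotted line at a mean of 0.5 TPM.

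Of the 45 genes, 43 had a mean of at least 0.5 TPM and were tested. Cd63, a lysosomal tetraspanin gene, was listed at 0 in 5 libraries and had 1 read (0.0468 TPM) in NCOA4 siRNA replicate 1. Other widely expressed genes were also listed at low values, such as the ribosomal protein gene Rpl24 at 1.86 to 4.99 TPM (chosen after its values were seen), so no statement on Cd63 expression was made. Atp6v0d2, a d subunit isoform of the V0 sector known from osteoclasts, was at 0.321, 0.364 and 0.141 TPM in control siRNA replicates 1 to 3 and at 0.380, 0.473 and 0.488 TPM in NCOA4 siRNA replicates 1 to 3. These values rested on 2 to 8 reads per library and gave no comparison at this depth.

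Most members differed little between the groups. With limma and a Benjamini-Hochberg correction over 13829 genes, 4 of the 43 genes tested had an adjusted p under 0.05, or 9.30%, beside 5.42% of all genes tested. The glycosidase gene Man2b1 was higher with NCOA4 siRNA, whereas the cathepsin genes Ctsb and Ctsl and the thioesterase gene Ppt1 were lower. Among all genes tested, 3.11% passed in the higher direction and 2.31% in the lower. None of the 43 passed both this threshold and a fold change of 1.5, which 1.18% of all genes did, although 13 of the 43 had an unadjusted p under 0.05 beside 21.6% of all genes tested, and no alternative setting, limma-voom on reads rebuilt from TPM included, brought any member past both. The outer ends of the 95% intervals over the 43 genes were -0.43 and 0.50 on the log2 scale, so changes beyond 1.5-fold lay outside the interval of every member tested.

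Direction was mixed. The fold change was positive for 31 members and negative for 12, where 57.4% of all genes tested were positive, and the median log2 fold change was 0.07 against 0.03 over all genes. Without control siRNA replicate 1 the members' median was 0.04 with 27 positive, beside 0.01 over all genes. After centring each library on its median it was 0.01 with 23 positive, beside -0.03 over all genes. The groups of libraries did not overlap for 17 of the 43 members (39.5%), with 11 higher and 6 lower with NCOA4 siRNA, and did not overlap for 28.4% of all genes tested. As these are bulk libraries, fewer cells with a transcript and less transcript per cell cannot be told apart.

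**Figure D2:**
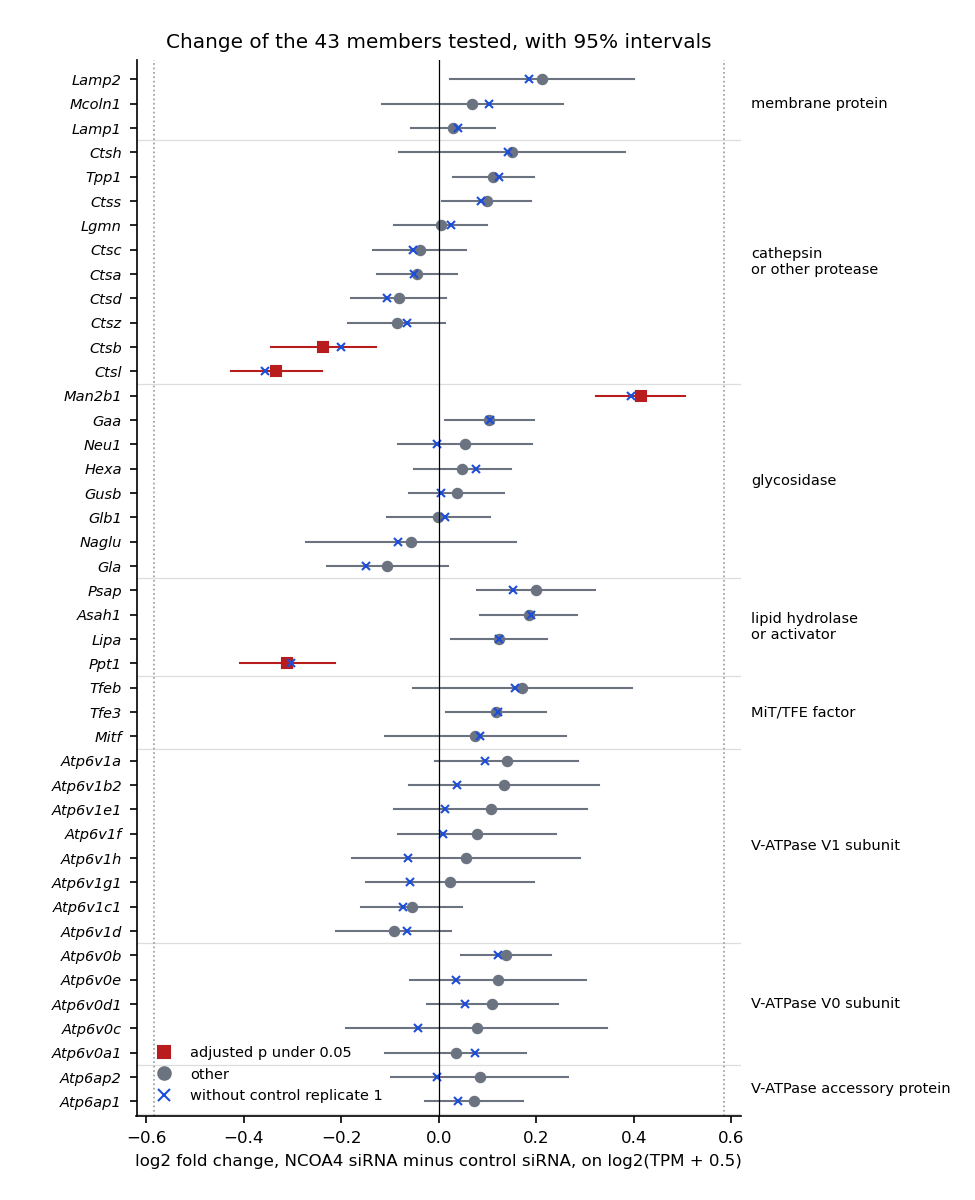
Log2 fold change (NCOA4 siRNA minus control siRNA, on log2(TPM + 0.5)) of the 43 lysosomal genes tested, with 95% intervals; red squares have an adjusted p under 0.05, blue crosses are the values without control siRNA replicate 1, and dotted lines mark a fold change of 1.5. Ctsl, Ppt1 and Ctsb lie on the lower side and Man2b1 on the higher side, and every interval ends inside the dotted lines.

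Promoters of the members were searched for the core of the CLEAR element. RefSeq promoter windows of GRCm38.p6, from 250 bases before to 50 bases after a transcription start, were matched by symbol for 37 of the 45 genes. The letters CACGTG, which read the same on both strands, were in a window of 14 of these 37 genes (37.8%), against 12.2% of the 9093 tested genes in that collection and 8.09% of all its 27025 genes. The longer GTCACGTG, which contains CACGTG and was searched on both strands, was in 10 of 37 (27.0%), against 5.10% and 2.55%. By role, CACGTG was in 2 of 4 membrane protein genes, 4 of 8 proteases, 4 of 8 glycosidases, 1 of 4 V1 genes and 3 of 5 V0 genes, and in none of the lipid hydrolase, MiT/TFE or accessory genes in the collection. The windows below show the match with its flanks for genes of each role that had one. Matches are in capitals, 5′ to 3′ on the strand of the gene. The place given is that of the first base of the match, counted from the start.

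Mcoln1, chr8:3500434-3500465, plus strand, from -73: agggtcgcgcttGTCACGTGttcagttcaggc
Mcoln1, chr8:3500462-3500493, plus strand, from -45: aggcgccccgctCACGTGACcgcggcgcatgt
Lamp1, chr8:13159121-13159152, plus strand, from -28: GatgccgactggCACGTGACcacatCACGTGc
Ctsd, chr7:142387906-142387937, minus strand, from -98: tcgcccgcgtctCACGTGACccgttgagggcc
Lgmn, chr12:102439124-102439155, minus strand, from -51: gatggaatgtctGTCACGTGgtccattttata
Ctsl, chr13:64370739-64370768, minus strand, from -236: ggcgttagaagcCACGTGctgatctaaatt
Glb1, chr9:114401016-114401047, plus strand, from -50: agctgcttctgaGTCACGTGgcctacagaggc
Naglu, chr11:101070007-101070038, plus strand, from -75: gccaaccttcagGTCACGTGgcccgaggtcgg
Gla, chrX:134601182-134601213, minus strand, from -196: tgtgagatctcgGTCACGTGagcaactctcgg
Atp6v0b, chr4:117887348-117887379, minus strand, from -38: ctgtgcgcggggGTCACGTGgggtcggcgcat
Atp6v1a, chr16:44139373-44139402, minus strand, from -131: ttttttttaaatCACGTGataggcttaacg

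In the Lamp1 window the place given is that of the longer match. The single capital at the left edge of this window is the last base of a neighbouring match. The capitals near its right edge are another match, from -15. Lamp1 had 4 matches in all, and Mcoln1 had 2. Of the members that passed the test, Ctsl had the short match alone, Ppt1 and Man2b1 had neither, and Ctsb had no window in the collection. The 14 genes with CACGTG had a median log2 fold change of 0.02 (from -0.33 to 0.14), and the 22 tested genes whose windows lacked it had a median of 0.08 (from -0.31 to 0.41). One gene of the former and 2 of the latter had an adjusted p under 0.05. A match describes these letters in these windows, and binding was not measured.

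Protease transcripts together were less abundant in every NCOA4 siRNA library than in any control library. Their summed level was 8566, 8462 and 8484 TPM in control siRNA replicates 1 to 3 and 8056, 8010 and 8071 TPM in NCOA4 siRNA replicates 1 to 3. The mean difference of this sum (NCOA4 siRNA minus control siRNA) was -459 TPM. Ctsb (-206 TPM) and Ctsl (-170 TPM) held the largest parts of it, so the sum does not stand for all 10 genes. Of the 10 genes, 6 were lower and 4 higher in the mean, 2 of the lower ones passed the test, and in 8 the groups of libraries did not overlap, beside 5.42% passing and 28.4% not overlapping among all genes tested. Ctsl, Ctsb and the other cathepsins are made as inactive precursors that are cleaved to their active form in the acidic lumen.

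Ctsl (ENSMUSG00000021477, chr13:64359337-64370890, minus strand) encodes cathepsin L, a cysteine endopeptidase. Its level was 796, 850 and 818 TPM in control siRNA replicates 1 to 3 and 654, 648 and 652 TPM in NCOA4 siRNA replicates 1 to 3. The NCOA4 siRNA libraries lay close together and below every control library, at 79.3% of the control mean (log2 fold change -0.33, SE 0.0392, adjusted p = 0.00751 by limma). Ctsb (ENSMUSG00000021939, chr14:63122462-63145923, plus strand) encodes cathepsin B, another cysteine protease of the same family. Its level was 1427, 1325 and 1321 TPM with control siRNA and 1159, 1165 and 1131 TPM with NCOA4 siRNA in replicates 1 to 3. Again the groups did not overlap, with NCOA4 siRNA at 84.8% of control (log2 fold change -0.24, SE 0.0457, adjusted p = 0.0337 by limma).

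Both calls were lost with replicate number as a block in the fit (adjusted p by limma 0.0532 for Ctsl and 0.106 for Ctsb). In that fit 161 of all genes passed. Both calls also rested on having all 3 NCOA4 siRNA libraries. The number of all genes with an adjusted p under 0.05 by limma also fell, from 750 to 176, 174 and 183 without NCOA4 siRNA replicate 1, 2 or 3. For Ctsl the adjusted p by limma was 0.0545, 0.0563 and 0.0512 without NCOA4 siRNA replicate 1, 2 or 3, with log2 fold changes between -0.34 and -0.33. For Ctsb it was 0.140, 0.138 and 0.149 without NCOA4 siRNA replicate 1, 2 or 3 and 0.0616 and 0.0621 without control siRNA replicate 2 or 3, and it was 0.0130 without control siRNA replicate 1, the library with the highest Ctsb level. Exons of Ctsb share 12.8% of their length with Fdft1 on the opposite strand (34.5 TPM), and 26.9% of those of Ctsl lie under the antisense gene Gm47123 (listed at 0). The libraries were stranded, but whether strand was used in counting is not given in the sources used here, so reads of such pairs could have been assigned to either gene or to neither. In addition, 6.09% of the Ctsl exon bases are shared with the processed pseudogene Gm49230 (listed at 0). It lies on the same strand, so strand does not separate these reads.

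The other 8 proteases did not pass the test. Ctsd, the main aspartic protease of lysosomes, was at 982, 1012 and 1053 TPM with control siRNA and 969, 952 and 957 TPM with NCOA4 siRNA (log2 fold change -0.08, adjusted p = 0.308 by limma). Of its exon bases, 34.4% are shared with Gm49369, a predicted gene on the same strand listed at 0, so its level is uncertain. Ctsz, a carboxypeptidase and the most abundant member, was at 1964, 1859 and 1898 TPM and at 1814, 1769 and 1804 TPM, respectively (log2 fold change -0.09, adjusted p = 0.290 by limma). In the opposite direction lay Ctss, the cathepsin that trims the invariant chain of MHC class II molecules, with 1407, 1441 and 1440 TPM in control siRNA replicates 1 to 3 and 1516, 1512 and 1563 TPM in NCOA4 siRNA replicates 1 to 3 (log2 fold change 0.10, adjusted p = 0.205 by limma). The groups did not overlap for any of these 3 genes, although none passed after adjustment. They also did not overlap for Ctsa, the carboxypeptidase that protects Glb1 and Neu1 proteins (log2 fold change -0.04), for the tripeptidyl peptidase Tpp1 (0.11) or for the aminopeptidase Ctsh (0.15). Ctsc, the dipeptidyl peptidase that activates serine proteases of granules, and the asparaginyl endopeptidase Lgmn had overlapping groups, with log2 fold changes of -0.04 and 0.00406.

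**Figure D3:**
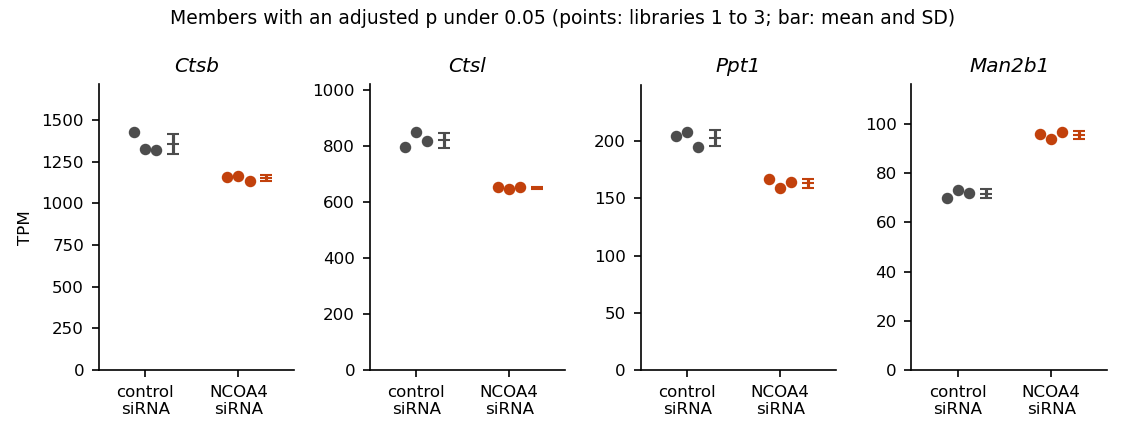
TPM of the 4 lysosomal genes with an adjusted p under 0.05 in each library (points, replicates 1 to 3 of control siRNA in grey and NCOA4 siRNA in orange), with the mean and SD of each group beside them (n = 3). Ctsb, Ctsl and Ppt1 are lower and Man2b1 is higher in all 3 NCOA4 siRNA libraries, with no overlap between groups.

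Among the glycosidases, which take sugars off glycoproteins, glycolipids and glycosaminoglycans, 1 of 8 genes passed the test. Man2b1 (ENSMUSG00000005142, chr8:85083270-85098282, plus strand) encodes lysosomal alpha-mannosidase, which trims mannose from N-glycans. Its level was 69.6, 73.2 and 71.7 TPM in control siRNA replicates 1 to 3 and 96.0, 93.8 and 96.6 TPM in NCOA4 siRNA replicates 1 to 3. Every NCOA4 siRNA library lay above every control library, at 133% of the control mean (log2 fold change 0.41, SE 0.0381, adjusted p = 0.00342 by limma). It was the member with the largest fold change in either direction, and its adjusted p stayed below 0.05 in all 16 alternatives (at most 0.0418). Leaving out any single library gave an adjusted p of at most 0.0332.

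The other 7 glycosidases had log2 fold changes from -0.11 to 0.10. Gaa, which degrades glycogen, was at 54.2, 54.6 and 53.6 TPM with control siRNA and 58.7, 59.2 and 56.8 TPM with NCOA4 siRNA, without overlap (log2 fold change 0.10, adjusted p = 0.182 by limma). Gla, the alpha-galactosidase of globotriaosylceramide, had a log2 fold change of -0.11, and its groups overlapped. The beta-galactosidase gene Glb1 was level between the groups, at 127 ± 4.46 TPM in control libraries and 127 ± 4.35 TPM in NCOA4 siRNA libraries (SD, n = 3 each). The remaining genes were Gusb (0.04), Hexa (0.05), Neu1 (0.05) and Naglu (-0.06), all with overlapping groups, and after median centring the fold changes of Gusb, Hexa and Neu1 were below 0. Without control siRNA replicate 1, Gusb was at 0.00554 and Neu1 at -0.00282.

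The 4 genes of lysosomal lipid breakdown had groups that did not overlap, as had 28.4% of all genes tested, and 1 of the 4 passed the test. Ppt1 (ENSMUSG00000028657, chr4:122836242-122859175, plus strand) encodes palmitoyl-protein thioesterase, which removes fatty acids from modified proteins. It was at 205, 208 and 195 TPM in control siRNA replicates 1 to 3 and at 167, 159 and 164 TPM in NCOA4 siRNA replicates 1 to 3. NCOA4 siRNA libraries were lower, at 80.5% of the control mean (log2 fold change -0.31, SE 0.0412, adjusted p = 0.0108 by limma). Without NCOA4 siRNA replicate 1, 2 or 3 the adjusted p was 0.0560, 0.0676 and 0.0611 by limma. With replicate number as a block in the fit it was 0.0637 by limma. Of the Ppt1 exon bases, 129 (3.51%) are shared with Cap1 on the opposite strand, which was at 744 TPM.

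The other 3 lipid genes pointed the opposite way and did not pass. Psap encodes prosaposin, whose saposin fragments present sphingolipids to hydrolases. Its level was 965, 1047 and 1078 TPM with control siRNA and 1188, 1161 and 1193 TPM with NCOA4 siRNA (log2 fold change 0.20, adjusted p = 0.0785 by limma), and without control siRNA replicate 1, its lowest library, the fold change was 0.15 with an adjusted p of 0.0341 by limma. Asah1, acid ceramidase, was at 88.9, 90.8 and 84.8 TPM and at 102, 97.8 and 101 TPM (log2 fold change 0.18, adjusted p = 0.0545 by limma). Lipa, the acid lipase of cholesteryl esters and triglycerides, was at 84.8 ± 2.70 TPM in control libraries and 92.4 ± 2.25 TPM in NCOA4 siRNA libraries (SD, n = 3 each; log2 fold change 0.12, adjusted p = 0.153 by limma).

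Membrane protein genes did not pass. Lamp1, the most abundant of the membrane protein genes in the set, was at 698 ± 15.4 TPM in control libraries and 712 ± 5.64 TPM in NCOA4 siRNA libraries (SD, n = 3 each; log2 fold change 0.03, adjusted p = 0.687 by limma). Lamp2, its relative that also serves chaperone-mediated autophagy, was at 60.9, 69.7 and 59.7 TPM and at 79.6, 72.6 and 68.3 TPM, with overlap (log2 fold change 0.21, adjusted p = 0.187 by limma). Mcoln1, which encodes the calcium and iron channel TRPML1, had a log2 fold change of 0.07 (95% interval from -0.12 to 0.26).

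The transcription factor genes Tfeb, Tfe3 and Mitf, whose products drive lysosomal genes when they enter the nucleus, had positive fold changes and did not pass. Tfe3 was the most abundant, at 30.6, 29.7 and 31.0 TPM in control siRNA replicates 1 to 3 and 33.4, 32.4 and 33.5 TPM in NCOA4 siRNA replicates 1 to 3, without overlap (log2 fold change 0.12, adjusted p = 0.180 by limma). Tfeb was at 10.3, 10.1 and 11.3 TPM and at 12.1, 10.6 and 13.3 TPM, with overlap (log2 fold change 0.17, adjusted p = 0.347 by limma). Mitf was at 24.5, 26.1 and 22.0 TPM and at 27.2, 25.2 and 24.0 TPM, with overlap (log2 fold change 0.07, adjusted p = 0.628 by limma). Transcript levels do not report on the phosphorylation or nuclear entry of these factors.

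None of the 15 V-ATPase genes tested had an adjusted p under 0.05, and 1, Atp6v0b, had an unadjusted p under 0.05. Over all genes tested these shares were 5.42% and 21.6%. The log2 fold changes of the 15 genes ran from -0.09 to 0.14, and the 95% intervals from -0.21 to 0.35. In the mean, 13 were higher and 2 lower with NCOA4 siRNA, where 57.4% of all genes tested were positive. This balance moved with 1 library. Control siRNA replicate 1 had the lowest level of the 6 libraries in 12 of the 15 genes, as it had in 34.5% of all genes tested. Without it, 9 of the 15 were positive and the median log2 fold change was 0.01 in place of 0.08. After median centring 10 were positive, with a median of 0.02. Over all genes tested the median was 0.03 in the main fit, 0.01 without that library and -0.03 after centring. The summed level of the V-ATPase genes was 2166, 2433 and 2478 TPM in control siRNA replicates 1 to 3 and 2516, 2452 and 2482 TPM in NCOA4 siRNA replicates 1 to 3, so that control siRNA replicate 1 was low and the other 5 libraries lay close together. The median V-ATPase gene was at 86.5% of the mean of control replicates 2 and 3 in control siRNA replicate 1, and at 102%, 101% and 102% in NCOA4 siRNA replicates 1 to 3.

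**Figure D4:**
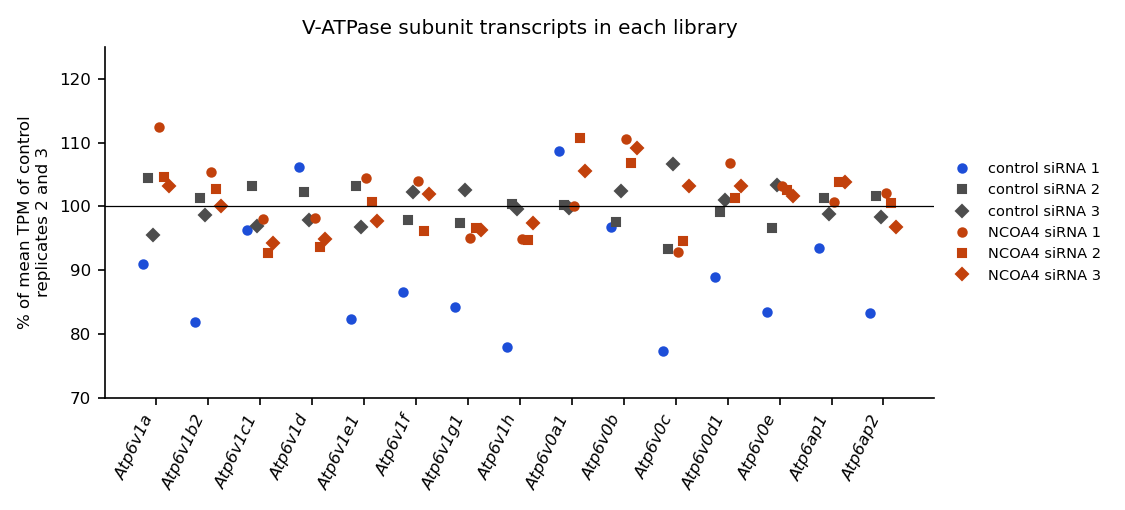
Level of the 15 V-ATPase genes tested in each library, as a percentage of the mean TPM of control siRNA replicates 2 and 3 (line at 100%; the axis starts at 70%). Control siRNA replicate 1 (blue) is the lowest library in 12 of the 15 genes. The NCOA4 siRNA libraries (orange) lie near the other controls (grey). They are above both for Atp6v0b and Atp6v0d1 and below both for Atp6v1g1 and Atp6v1h.

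In the V1 sector, the catalytic A subunit gene Atp6v1a was at 106, 122 and 112 TPM in control siRNA replicates 1 to 3 and 131, 122 and 120 TPM in NCOA4 siRNA replicates 1 to 3 (log2 fold change 0.14, adjusted p = 0.256 by limma), and its fold change was 0.09 without control siRNA replicate 1. Atp6v1b2, the B subunit that shares the nucleotide-binding sites, was at 92.2, 114 and 111 TPM and at 119, 116 and 113 TPM (log2 fold change 0.13, and 0.04 without control siRNA replicate 1). Both sets of libraries overlapped. The peripheral stalk gene Atp6v1g1 was the most abundant of the pump, at 432, 500 and 526 TPM and at 488, 496 and 495 TPM, and its log2 fold change of 0.02 was -0.06 without control siRNA replicate 1. Atp6v1h, the regulatory subunit that holds detached V1 inactive, also changed sign without that library, from 0.06 to -0.06. The rotor subunit gene Atp6v1d (-0.09) and Atp6v1c1, a subunit that joins the stalks (-0.06), were the pump genes with negative fold changes. The other V1 genes were Atp6v1e1 of the peripheral stalk (0.11) and Atp6v1f of the rotor (0.08), which were at 0.0138 and 0.00914 without control siRNA replicate 1.

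In the V0 sector, Atp6v0b, which encodes a proteolipid of the proton-carrying ring, was at 300, 303 and 318 TPM in control siRNA replicates 1 to 3 and 343, 331 and 339 TPM in NCOA4 siRNA replicates 1 to 3. The groups did not overlap, and the log2 fold change was 0.14 (SE 0.0387, adjusted p = 0.0973 by limma), or 0.12 without control siRNA replicate 1. Atp6v0d1, which couples the ring to the rotor, was at 233, 260 and 264 TPM and at 280, 266 and 270 TPM, without overlap (log2 fold change 0.11, adjusted p = 0.316 by limma), and its fold change was 0.05 without control siRNA replicate 1, its lowest library. Atp6v0e had a log2 fold change of 0.12 and Atp6v0a1, which forms part of the proton path, had 0.03, both with overlap, and without control siRNA replicate 1 these were 0.04 and 0.07.

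Atp6v0c, the main proteolipid of the ring, was the V-ATPase gene with the widest interval, with 61.8, 74.5 and 85.1 TPM in control siRNA replicates 1 to 3 and 74.1, 75.4 and 82.4 TPM in NCOA4 siRNA replicates 1 to 3 (log2 fold change 0.08, and -0.04 without control siRNA replicate 1). Its level is uncertain because 255 of the 2468 windows of 100 bases in its transcript (10.3%) also occur in the processed pseudogene Atp6v0c-ps2, listed at a mean of 742 TPM. Of the reads on both genes, 52.7% to 60.3% were on the copy in the 6 libraries, and counting could have divided them. The accessory protein genes Atp6ap1 (0.07) and Atp6ap2 (0.08), whose products assist assembly of the pump, had overlapping groups, and were at 0.04 and -0.00366 without control siRNA replicate 1.

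Genes with related roles were examined as context, also chosen with earlier results of these data known. They formed 5 lists of 170 other lysosomal genes, of which 153 were tested. Of these, 14 (9.15%) had an adjusted p under 0.05 by limma, 10 higher and 4 lower with NCOA4 siRNA, and 105 had a positive fold change. Over all genes tested the shares were 5.42% with such a p, 3.11% higher and 2.31% lower, and 57.4% with a positive fold change. With 1 library left out, between 2 (without NCOA4 siRNA replicate 2) and 19 (without control siRNA replicate 1) of the 153 passed. Among all genes, 174 of 13832 and 841 of 13868 passed in these settings, respectively. Slc36a1 and Sesn1 passed in all 16 alternatives. None of the 35 tested genes of enzyme sorting and delivery passed.

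Among the other hydrolases, 4 of 38 tested genes passed, 1 higher and 3 lower. Acp2, lysosomal acid phosphatase, was at 38.4, 39.7 and 39.4 TPM in control siRNA replicates 1 to 3 and 49.1, 48.2 and 48.1 TPM in NCOA4 siRNA replicates 1 to 3 (log2 fold change 0.30, adjusted p = 0.00969 by limma). The lower genes were Plbd2 (-0.31), the sulfatase gene Galns (-0.27) and the sulfatase gene Arsb (-0.23), the products of the latter 2 acting on glycosaminoglycans.

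Of the 36 other membrane proteins and transporters, 7 passed and all 7 were higher with NCOA4 siRNA, a direction in which 3.11% of all genes tested passed. Slc36a1, which exports amino acids from the lysosome with protons, was at 23.2, 25.4 and 23.7 TPM and at 36.1, 36.3 and 34.2 TPM (log2 fold change 0.55, adjusted p = 0.00451 by limma), without overlap. Slc11a1, the phagosomal metal transporter NRAMP1, was at 164, 141 and 152 TPM in control siRNA replicates 1 to 3 and 194, 197 and 201 TPM in NCOA4 siRNA replicates 1 to 3 (log2 fold change 0.38, adjusted p = 0.0175 by limma). The others were the cystine exporter Ctns (0.42), the nucleoside transporter Slc29a3 (0.35), the cation channel gene Tpcn1 (0.33), Laptm5 (0.23) and Slc37a2 (0.30), the last of which was named after its values were seen.

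Of the 15 other V-ATPase subunits and assembly factors tested, Rogdi, which belongs to a complex that reassembles the pump, passed (log2 fold change 0.45, adjusted p = 0.0446 by limma). In the nutrient-sensing list, 2 of 29 genes passed. Sesn1, whose product restrains mTORC1 signalling, was at 22.8, 27.6 and 27.9 TPM and at 44.0, 43.5 and 42.7 TPM (log2 fold change 0.73, adjusted p = 0.00681 by limma), and it was the 1 gene of the 5 lists past a fold change of 1.5. Rraga, a small GTPase that brings mTORC1 to the lysosome, was lower in all 3 NCOA4 siRNA libraries, at 76.7% of the control mean (log2 fold change -0.38, adjusted p = 0.00885 by limma).

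**Figure D5:**
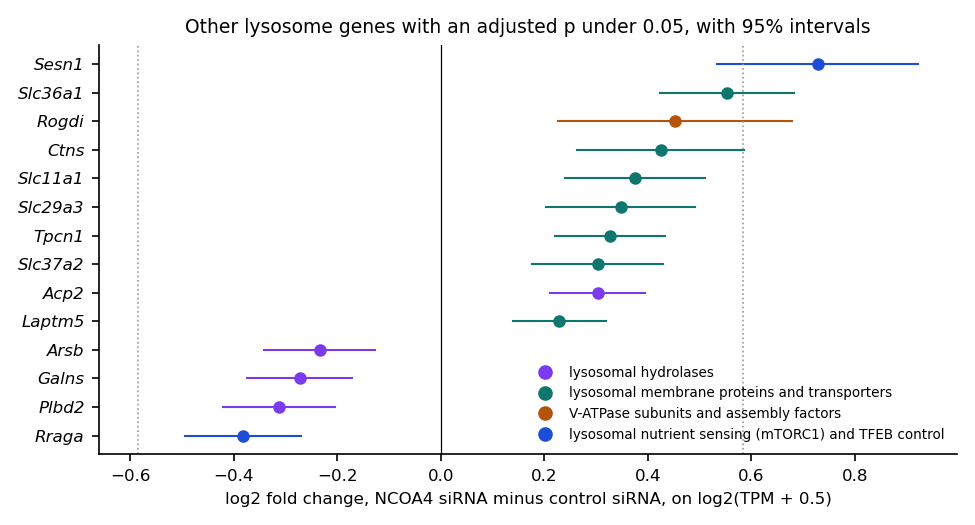
Log2 fold change (NCOA4 siRNA minus control siRNA, on log2(TPM + 0.5)) with 95% intervals of the 14 genes of the 5 companion lists with an adjusted p under 0.05, coloured by list; dotted lines mark a fold change of 1.5. The 7 membrane proteins and transporters (green) all lie on the higher side, Sesn1 lies farthest from 0, and Rraga, Plbd2, Galns and Arsb lie on the lower side.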

How the data were processed

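Poly(A) RNA-seq of 6 stranded libraries was used. The authors deposited TPM per Ensembl gene, scaled to 1000000 per library. The submitters' processing notes name Trimmomatic 0.33, FastQC, HISAT2 2.1.0, featureCounts, edgeR and mm10; the annotation is not given in the sources used here. Of 55487 identifiers, 55141 were found in GENCODE M21, which gave names and positions. Reads rebuilt from TPM and exon length were whole within 0.02 for 98.3% of the 21096 genes above 0, and numbered 15498055 to 18277491 per library; 1 read on a 2 kb gene equals 0.0825 to 0.0959 TPM.

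Genes with a mean of at least 0.5 TPM (13829) were tested with limma 3.58.1 in R 4.3.3 on log2(TPM + 0.5), with an eBayes trend and Benjamini-Hochberg adjustment, a scale that understates changes of low genes. The count test of the study was not used because values are TPM. Group differences for Ncoa4 were also tested by exact permutation of the libraries, two-sided (p = 0.1, the smallest that 3 against 3 libraries allow). The scripts were tested on simulated data. Other tables were made with Python 3.11.15.

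All 45 members are named, and up to 6 genes per companion list in order of adjusted p; other names are marked. The members and lists were chosen with earlier results of these data known. The fit was repeated with each library left out, with a replicate block, with limma-voom on rebuilt reads, without the eBayes trend, without mitochondrial genome genes, after quantile normalization or median centring, with a minimum mean of 5 TPM or none, and with 0.1 or 1 as pseudocount. Same-numbered libraries did not deviate together (r = 0.03, -0.02 and 0.02), so numbers were not taken as pairs in the main fit. The labels do not say whether they were prepared as pairs.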

Additional observations from a re-analysis of the deposited data

How the results depend on the processing

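Over 16 alternatives, Ncoa4 stayed between -1.27 and -1.17 (log2) and below an adjusted p of 0.05, and the number of members past both thresholds stayed at 0. Members with an adjusted p under 0.05 numbered 4, against 8 with limma-voom and 1 with the replicate block, and between 1 and 5 with a library left out (1 without any NCOA4 siRNA replicate); other settings gave 3 to 6. Other lysosomal genes numbered 14, against 8 without an eBayes trend, 31 with limma-voom and 2 with the block, and between 2 and 19 with a library left out. Over all genes the number was 750, against 161 with the block, 404 without an eBayes trend and 1479 with limma-voom. With a library left out it was between 174 (without NCOA4 siRNA replicate 2) and 841 (without control siRNA replicate 1). Same-numbered libraries did not deviate together, but so few libraries cannot show whether they were prepared as pairs. Whether a call lost under the block is a weaker effect was not tested. The members' median log2 fold change of 0.07 was 0.0137 after median centring and between 0.0356 and 0.0968 with a library left out (lowest without control siRNA replicate 1). Centring lowered the fold change of every gene by the same amount, and the median over all genes was 0.0309 before and -0.0271 after it. The cause of the shifts with a library left out was not tested.

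Sign changes occurred in 12 members, whose reported log2 fold changes were at most 0.0836 in size. After median centring the values were -0.0288 for Lamp1, -0.0539 for Lgmn, -0.0210 for Gusb, -0.00977 for Hexa, -0.00479 for Neu1, -0.0345 for Atp6v1g1, -0.00267 for Atp6v1h and -0.0231 for Atp6v0a1. Without mitochondrial genome genes Lgmn was at -0.0106. Quantile normalization gave 0.00926 for Glb1 and -0.00125 for Atp6v0a1, and limma-voom gave 0.00946 for Glb1. With a library left out the ranges were -0.0173 to 0.0254 for Lgmn, -0.0299 to 0.0185 for Glb1, -0.00282 to 0.0900 for Neu1, -0.114 to 0.0172 for Naglu, -0.0589 to 0.0829 for Atp6v1g1, -0.0629 to 0.117 for Atp6v1h, -0.000387 to 0.0741 for Atp6v0a1, -0.0436 to 0.186 for Atp6v0c and -0.00366 to 0.139 for Atp6ap2. Ctsb (adjusted p = 0.0971) also lost its call without a filter and without a trend (0.0821), while Asah1, Psap, Atp6v0b and Lamp2 passed under 1 to 3 alternatives each, limma-voom included. Depth limits Atp6v0d2, with at most 8 reads per library, and no statement was made on Cd63 expression.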
